A study of Mus musculus with 2 samples.

Results

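The unfolded protein response and the integrated stress response were followed through 42 genes, listed by name, in mouse liver 5 weeks after whole-body irradiation. The annotation gave 41 of them a probe set carrying no other gene symbol, out of 22180 genes so measured. The 42 comprised 6 sensors and switches, 14 genes of the ATF4 arm, 14 chaperones and folding enzymes of the ATF6/XBP1 arm, and 8 genes of endoplasmic reticulum-associated degradation (ERAD). Pdia4, a disulphide isomerase gene, was the exception, since its probe set also carried the microRNA symbol Mir704. All 41 reached the median of the deposited values (6.06 on the log2 scale) on at least 1 array and are called expressed below, as were 13689 of the 22180 genes. No member was left out by that filter, although Psat1 passed it only through its irradiated value.

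The series held 2 liver samples from male C57BL/6 mice, both aged 9 weeks. The control sample was labelled as treated with none. The irradiated sample came from mice given a single gamma-ray dose of 6 Gy to the whole body, under anaesthesia, at 4 weeks of age and at 0.81 Gy per minute. The labels do not say how the control was handled, nor whether an RNA came from 1 animal or a pool. Each sample was hybridised to 1 Affymetrix whole-transcript array, so no value below has a replicate check and no test was made. Values are log2 RMA values, in which a difference of 1 is a doubling, and each difference is irradiated minus control. The comparison asks which transcripts of these stress pathways differ weeks after a single exposure. Hepatocyte markers fitted the labelled tissue, with Alb, Apoa1 and Ttr among 11 measured markers, all expressed, whose mean level was 12.57 in the control and 12.60 after irradiation.

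Proteins that are secreted or sit in membranes fold in the endoplasmic reticulum, and hepatocytes make large amounts of them. When unfolded protein accumulates there, the sensors PERK, IRE1 and ATF6 act through separate routes. PERK phosphorylates the initiation factor eIF2, which slows translation in general but raises translation of ATF4, a factor that switches on amino acid supply and stress genes. The kinase GCN2 reaches ATF4 by the same step when amino acids are short, and the shared route is the integrated stress response. IRE1 splices the Xbp1 transcript, and ATF6 is cut free of its membrane. The factors so made switch on chaperones and ERAD genes.

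The routes also differ in the DNA elements of their target genes, which are shown here because the arms are compared below. XBP1 and ATF6 are known to bind the endoplasmic reticulum stress response element (ERSE), searched as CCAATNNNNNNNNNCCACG, and the related ERSE-II, searched as ATTGGNCCACG. ATF4 paired with C/EBP factors binds the C/EBP-ATF response element (CARE), searched as TGATGNAA. RefSeq promoters of assembly GRCm38.p6, from 250 bases before to 50 after a start site, were held for 37 of the 42 members, and both strands were searched. A gene was counted when any of its promoters held a match. ERSE was present in 7 of 12 genes of the chaperone group, 2 of 7 ERAD genes and none of 14 of the ATF4 arm. In the whole set it was present in 37 of 27025 genes (0.137%). CARE was present in 5 of 14 genes of the ATF4 arm, none of 12 chaperones and 1 of 7 ERAD genes, against 4.51% of all genes. The arms were listed as targets of these factors, so a higher share than among all genes was likely beforehand and is not a result. The following stretches, with the ERSE match in capitals, come from chaperone genes and are written 5′ to 3′ on the strand of the gene.
Hspa5, chr2:34772005-34772063, plus strand: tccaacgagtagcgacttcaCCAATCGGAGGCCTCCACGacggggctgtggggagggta
Creld2, chr15:88819500-88819558, plus strand: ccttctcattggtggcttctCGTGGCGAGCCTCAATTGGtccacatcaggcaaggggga
Pdia6, chr12:17266471-17266529, plus strand: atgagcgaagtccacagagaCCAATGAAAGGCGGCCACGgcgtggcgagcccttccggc
Dnajc3, chr14:118937807-118937865, plus strand: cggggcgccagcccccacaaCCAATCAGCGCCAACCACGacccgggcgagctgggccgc
Hsp90b1, chr10:86705513-86705571, minus strand: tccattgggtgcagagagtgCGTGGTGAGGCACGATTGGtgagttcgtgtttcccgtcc
Canx, chr11:50325780-50325838, minus strand: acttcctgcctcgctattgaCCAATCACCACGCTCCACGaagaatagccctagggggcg

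In Creld2 and in the stretch of Hsp90b1 shown, the match lies on the opposite strand, so that the capitals read from CGTGG to ATTGG. Hsp90b1 held a further ERSE match nearer the upstream end of its promoter, and Calr, Derl3 and Syvn1 held 1 each. The stretches below, with the CARE match in capitals, come from 4 genes of the ATF4 arm and from the ERAD gene Herpud1.
Atf3, chr1:191183416-191183463, minus strand: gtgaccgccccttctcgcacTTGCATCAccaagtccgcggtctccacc
Nupr1, chr7:126625553-126625600, minus strand: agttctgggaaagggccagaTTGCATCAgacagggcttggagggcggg
Chac1, chr2:119351029-119351076, plus strand: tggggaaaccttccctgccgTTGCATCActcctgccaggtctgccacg
Asns, chr6:7693210-7693252, minus strand: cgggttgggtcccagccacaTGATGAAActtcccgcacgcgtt
Herpud1, chr8:94386297-94386344, plus strand: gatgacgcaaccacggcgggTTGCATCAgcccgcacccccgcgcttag

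Atf3, Nupr1, Chac1 and Herpud1 share the same 8 letters, on the strand opposite to the search word, and Asns carries a variant on its own strand. Herpud1 also held ERSE-II, from -52 to -42 bases relative to its start, and was the only member with a match to both kinds of element. A match is a description of the letters and not evidence of binding. The plain word TGACGTGG (UPRE), a further XBP1 and ATF6 element found in 0.714% of all genes, was in no member's window.

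Most members lay above 0. Their median difference was 0.12, against -0.00 over all 13689 expressed genes, and 32 of 41 were higher after irradiation, against 48.5% of expressed genes. The sizes were small. At least 1.5-fold higher were 6 members (Atf3, Nupr1, Asns, Ddit4, Psat1 and Creld2), where 1.14% of expressed genes were. Psat1 counted as expressed only through its irradiated value. With values below the median of the deposited values raised to it, 5 members were past 1.5-fold. None of the members was 1.5-fold lower, where 0.65% of expressed genes were. Chac1 and Hyou1 were next, at 1.44-fold and 1.47-fold, and these 8 were the members above the middle 95% of expressed genes, which ran from -0.37 to 0.42. No member lay below that range. In a whole-liver sample a larger number of cells of a type and more RNA per cell cannot be told apart.

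**Figure D1:**
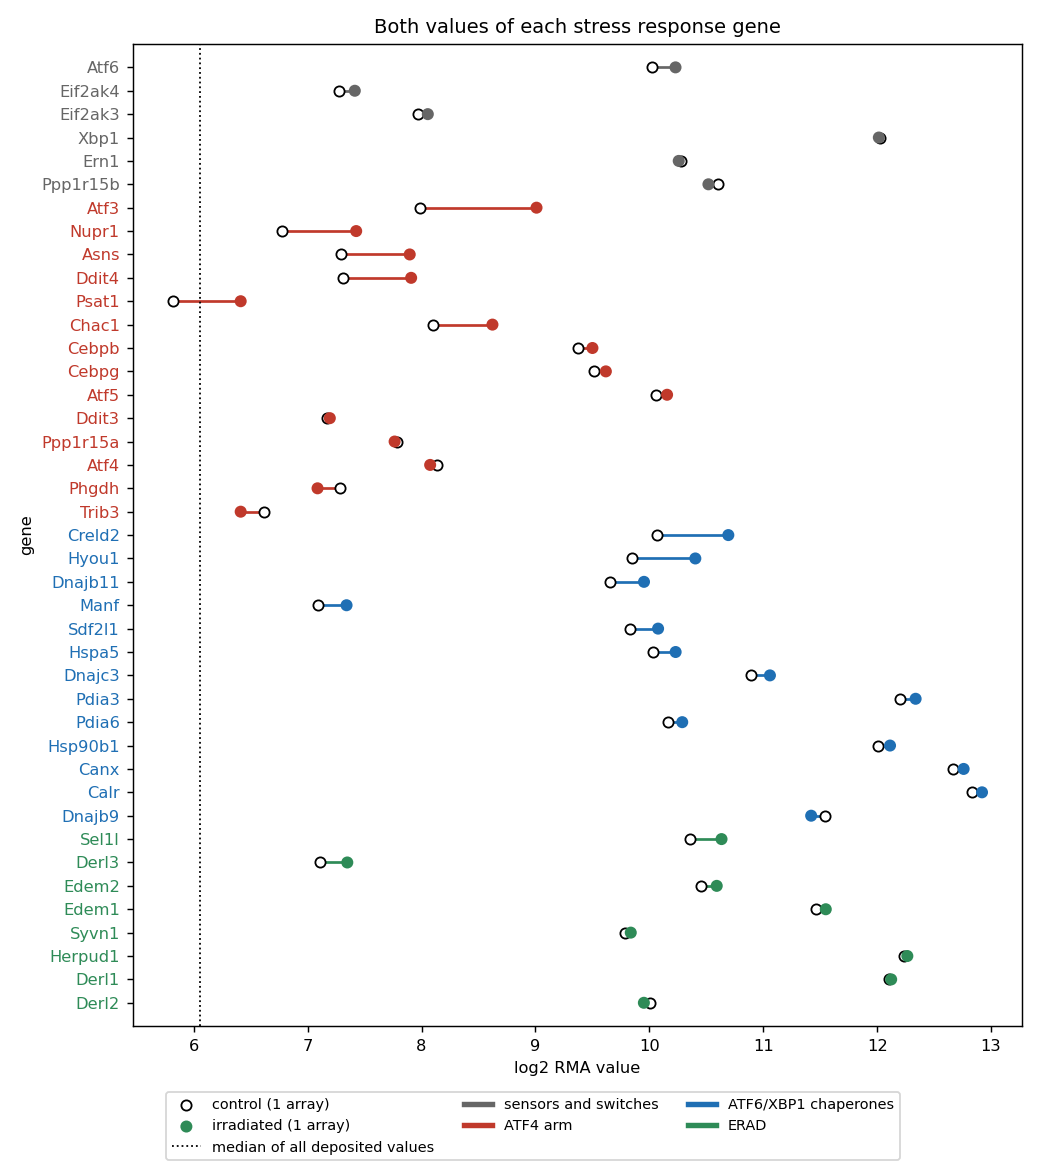
Log2 RMA value of each of the 41 measured members on the control array (open circles) and on the irradiated array (filled circles), by role, with 1 array per group; the dotted line is the median of all deposited values. The long lines belong to 6 genes of the ATF4 arm and to Creld2 and Hyou1, and Psat1 is the member that crosses the dotted line.

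The sensors at the head of the pathways differed little. Atf6, the sensor that becomes a transcription factor once cut, read 10.03 in the control and 10.23 after irradiation, a difference of 0.20. Eif2ak4, which encodes the amino acid sensor GCN2, went from 7.27 to 7.41, and Eif2ak3, which encodes PERK, from 7.97 to 8.06. Ern1, the gene of IRE1, was at 10.27 and 10.26, and its target Xbp1 at 12.03 and 12.01. These 2 genes therefore differed by -0.02 and -0.01, although splicing of Xbp1 is not seen by a value for the whole transcript. Ppp1r15b encodes the constitutive partner of the phosphatase that restores eIF2, and was at 10.60 and 10.52. The group had a median of 0.04, with 3 of 6 above 0.

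Genes of the ATF4 arm were spread widely. Above the middle 95% of expressed genes were 6 of them, while 4 lay below 0. The median was 0.12 over 14 genes, close to the median of all members, while the mean was 0.28, and 5 of the 6 members past 1.5-fold belonged to this arm. Atf4 itself was at 8.13 in the control and 8.08 after irradiation, a difference of -0.06. ATF4 is controlled mainly through translation, which an RNA value does not show.

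Among the transcription factor genes of this arm, Atf3 stood out. It encodes a stress-induced bZIP repressor, and went from 7.98 to 9.01, a difference of 1.03 or 2.04-fold. It ranked 42 of 13689 expressed genes and was the only member at least 2-fold higher, a size reached by 0.321% of expressed genes. The other factors of this group were near their control values. Ddit3, which encodes the pro-death factor CHOP, was at 7.17 and 7.19. Atf5 went from 10.06 to 10.16, Cebpb from 9.38 to 9.50 and Cebpg, the C/EBP partner of ATF4, from 9.51 to 9.62. Atf3 and its usual companion in severe stress, Ddit3, thus differed by 1.03 and 0.02.

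Of the 4 enzymes in this arm, 3 were higher. Asns, which makes asparagine, went from 7.29 to 7.90, 1.52-fold. Chac1, which degrades glutathione, went from 8.10 to 8.62, 1.44-fold. The enzymes of serine synthesis did not move together. Phgdh, the first step, was lower, at 7.29 and 7.09, a difference of -0.20. Psat1, the second step, went from 5.82 to 6.41, which is 1.51-fold as measured, but its control value lay below the median of the deposited values. With that value set to the median, Psat1 was 1.28-fold higher. Psph, the last step and not one of the 42, was picked out after its values were seen and was at 6.38 and 6.47. Of further enzyme genes under ATF4, Cth and Cbs of cysteine synthesis, also picked out afterwards, were at -0.06 and -0.11.

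The regulators of the arm also went separate ways. Nupr1, a small stress-induced chromatin protein, went from 6.77 to 7.43, 1.57-fold. Ddit4, which encodes the mTOR inhibitor REDD1, went from 7.31 to 7.91, 1.51-fold. Trib3, the pseudokinase that restrains ATF4 and CHOP, was lower, at 6.62 and 6.41, a difference of -0.21 and the lowest of all members. Ppp1r15a encodes GADD34, the inducible partner of the eIF2 phosphatase, and was at 7.78 and 7.76. Atf3, Cebpb, Ddit4 and Ppp1r15a also answer to growth factor, p53 or hormone signals. Without these 4 genes the median of the arm was 0.10 over 10 genes, and 3 of the 10 were past 1.5-fold, against 5 of 14.

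**Figure D2:**
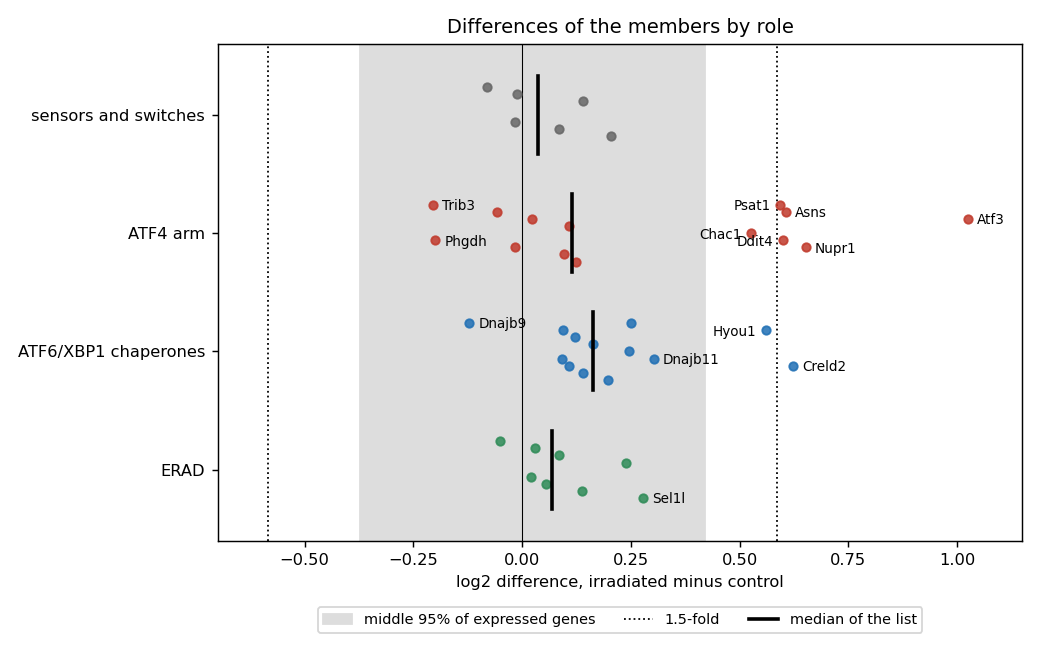
Log2 difference, irradiated minus control, of each of the 41 measured members by role; each point is a gene, black bars are group medians, the grey band is the middle 95% of expressed genes and dotted lines mark 1.5-fold. In the ATF4 arm 6 genes lie right of the band and 8 lie between -0.21 and 0.12, whereas 10 chaperones lie between 0.09 and 0.30.

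Nearly all chaperones and folding enzymes lay above 0. Of 13 measured, 12 were higher after irradiation, with a median of 0.16 and a mean of 0.21. Creld2, a cysteine-rich protein of the endoplasmic reticulum, went from 10.07 to 10.69, 1.54-fold, and was the 1 chaperone past 1.5-fold. Hyou1, a large chaperone that serves BiP as a nucleotide exchange factor, went from 9.84 to 10.40, 1.47-fold.

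The central Hsp70 machine itself was only slightly higher. Hspa5, which encodes BiP, went from 10.03 to 10.23, a difference of 0.20. Its J-protein partners were unequal. Dnajb11 went from 9.65 to 9.95 and Dnajc3, also an inhibitor of PERK, from 10.90 to 11.06, while Dnajb9, a repressor of IRE1, was lower, at 11.54 and 11.42. Dnajb9 was the 1 chaperone below its control value, with a difference of -0.12. Sdf2l1, a partner of Dnajb11, went from 9.83 to 10.08.

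Chaperones of other kinds made up the rest. Hsp90b1, which encodes GRP94, went from 12.01 to 12.11. The lectin chaperone genes Calr and Canx, which hold glycoproteins, differed by 0.09 and 0.09. The disulphide isomerase genes Pdia3 and Pdia6 differed by 0.14 and 0.12, and the probe set shared by Pdia4 and Mir704 by 0.07, from 8.33 to 8.40. Manf, a secreted stress protein, went from 7.09 to 7.34. Apart from Creld2 and Hyou1, then, the chaperones above 0 lay between 0.09 and 0.30, inside the range of the middle 95% of expressed genes.

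ERAD genes, which send misfolded proteins to the proteasome, had a median of 0.07, with 7 of 8 above 0 and none past 1.5-fold. Sel1l, the adaptor of the main membrane ligase, went from 10.36 to 10.63, the largest difference of the group at 0.28. Its ligase partner Syvn1 (HRD1) was at 9.78 and 9.84. Derl3, a derlin typical of secretory cells, went from 7.11 to 7.35. Derl1 was at 12.10 and 12.12 and Derl2 at 10.00 and 9.95. The mannosidase-like genes Edem1 and Edem2, which mark glycoproteins for removal, differed by 0.08 and 0.14. Herpud1, a ligase cofactor, was at 12.24 and 12.27. A second probe set of Derl2 differed by -0.07 and a second one of Edem1, below the median of the deposited values on both arrays, by -0.11.

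The ATF4 arm and the chaperones compared as follows. By medians the ATF4 arm lay 0.05 below the chaperones (difference of medians -0.05), but by means it lay 0.06 above them. The spread within the 2 groups differed in shape. The ATF4 arm held 5 of 14 genes past 1.5-fold and 10 of 14 above 0, and ran from -0.21 to 1.03. The chaperones held 1 of 13 past 1.5-fold and 12 of 13 above 0, and ran from -0.12 to 0.62. The arms also differed in level, with a mean in the control of 7.80 for the ATF4 arm and 10.68 for the chaperones. With the floor at the 75th percentile of the deposited values, 3 of 9 genes of the ATF4 arm and 1 of 12 chaperones were past 1.5-fold. The part of level in the spread was not tested. The contrast in the counts past 1.5-fold depended on the threshold and on the scale. Psat1, Ddit4 and Asns lay just past it, at 1.51, 1.51 and 1.52-fold, and the chaperone gene Hyou1 just short, at 1.47-fold. With the control value of Psat1 raised to the median of the deposited values, 4 genes of the ATF4 arm were past 1.5-fold. At 2-fold, Atf3 was the only member of either arm left. With 32 added to both arrays on the linear scale, Nupr1, Asns, Ddit4 and Psat1 fell short of 1.5-fold, which left 1 gene in the ATF4 arm (Atf3) and 1 chaperone (Creld2). With 1 array per group, no difference between the arms was tested.

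Differences can also be read by promoter element. In the ATF4 arm the 5 genes with a CARE match were Atf3, Nupr1, Asns, Chac1 and Trib3. Their median difference was 0.61, against 0.10 for the 9 with no match in the window. Trib3, at -0.21, ran against the other 4, and its match lay after the start site. Ddit4 and Psat1 were 1.5-fold higher with no match in the window. Elements outside the window or with other letters were not searched for, so genes without a match may still carry one. Among chaperones the 7 genes with ERSE had a median of 0.12, and the 4 others with both a promoter and a value one of 0.19. Of these 4, Dnajb11 carried ERSE-II just after its start. With either element counted, the 8 genes that held one and the 3 that held neither (Dnajb9, Pdia3 and Sdf2l1) both had a median of 0.14. Herpud1, with CARE and ERSE-II, differed by 0.03. These are descriptions of few genes, and the elements were searched with the array values known.

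**Figure D3:**
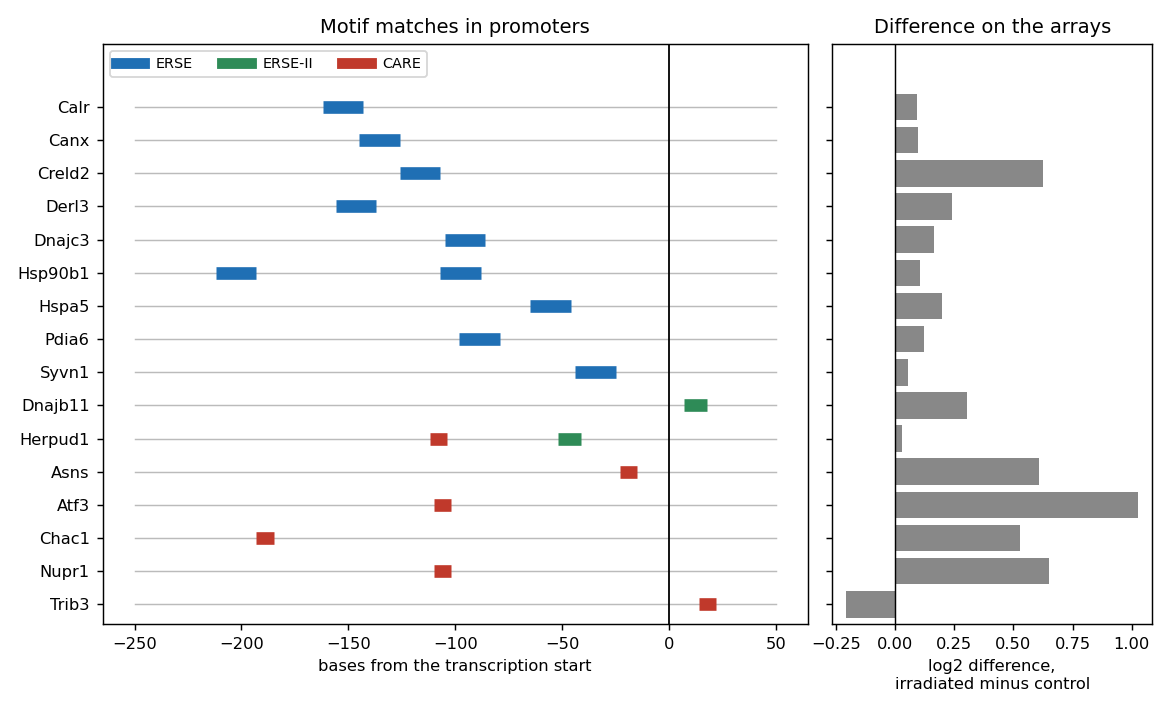
Left, positions of ERSE (blue), ERSE-II (green) and CARE (red) matches in bases from the transcription start, for the 16 members with a match, in RefSeq promoters of 250 bases before to 50 after the start; right, log2 difference of each gene, irradiated minus control, from 1 array per group. ERSE matches lie in chaperone and ERAD genes and CARE matches in 5 genes of the ATF4 arm and in Herpud1, and all genes shown except Trib3 lie above 0.

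The wider pathways were read through 170 further genes, of which 158 were measured and 154 expressed. Their median was 0.075 and 104 lay above 0, where 48.5% of all expressed genes did. None of the 154 was 1.5-fold higher or lower, sizes that only 1.14% and 0.65% of all expressed genes reached. Slc7a11, the cystine transporter gene and an ATF4 target, differed by 0.76 but was below the median of the deposited values on both arrays, at 4.72 and 5.47, and is not counted. Further targets of ATF4 had a median of 0.13, with 23 of 30 above 0. Within them all 11 measured aminoacyl-tRNA synthetase genes, which charge tRNAs with amino acids, were above 0, between 0.08 and 0.39, with a median of 0.20. This subgroup and the genes named in the next sentences were picked out after their values were seen. Among expressed genes of the list the mitochondrial folate gene Mthfd2 was highest at 0.41, though below the median of the deposited values in the control, and the lipoprotein receptor gene Vldlr was lowest at -0.56. Shmt2, which feeds serine into the same folate pathway, was at -0.29, and the ATF4-responsive liver hormone gene Fgf21 at -0.16.

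Genes around the chaperones gave smaller medians. Further folding enzymes had a median of 0.08 (19 of 26 above 0), with the oxidase gene Ero1b highest at 0.35 among expressed genes. Translocon, signal peptidase and glycosylation genes had one of 0.11 (22 of 29), and coat and cargo genes of transport to the Golgi one of 0.05 (15 of 22). Further ERAD genes had a median of 0.03 (15 of 25). The lists of eIF2 and bZIP genes likewise had medians near 0 or below it. The eIF2 kinase, eIF2 and eIF2B genes had a median of -0.06, with 4 of 10 above 0, and the bZIP factors of the endoplasmic reticulum with their activators one of 0.03, with 6 of 12 above 0. In that list Creb3l1, a relative of ATF6 known for its part in collagen secretion, was at 0.44.

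**Figure D4:**
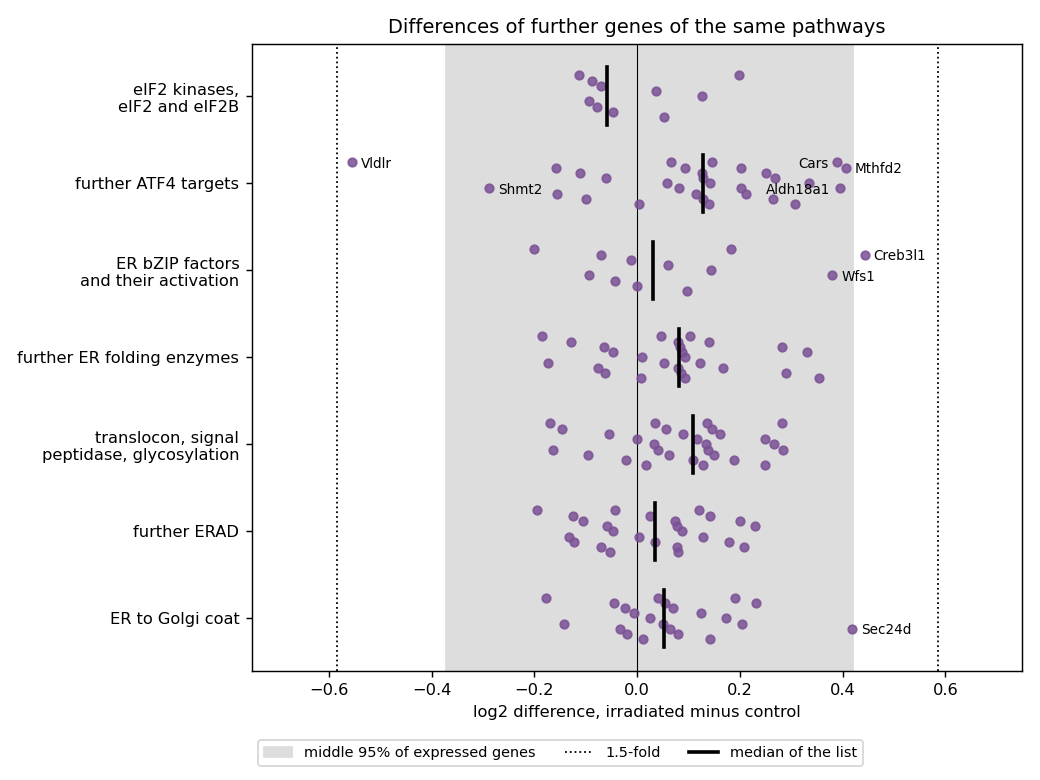
Log2 difference, irradiated minus control, of the 154 expressed further genes in 7 lists; points are genes, black bars are list medians, the grey band is the middle 95% of expressed genes and dotted lines mark 1.5-fold. No point lies past a dotted line, and the median of every list except the eIF2 list lies above 0.

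Other signals differed between the 2 samples, and their part in these results was not tested. Of 9 expressed bile duct markers 8 lay above 0 and 5 were at least 1.5-fold higher, where 1.14% of expressed genes were. The 5 were led by Muc1 (2.62) and Cd24a (2.50). Krt7 (0.29), Pkhd1 (0.22) and Sox9 (0.19) fell short of that size, and Onecut1 (-0.09) was lower. The mean level of the 10 measured was 6.98 in the control and 7.90 after irradiation. Of these 10, 1 was below the median of the deposited values on both arrays. Stellate and smooth muscle markers went from a mean of 7.80 to 8.51, with 9 of 10 above 0 and 4 past 1.5-fold. The 4 were Cnn1 (2.42), Acta2 (1.97), Des (0.95) and Tagln (0.59), whereas Lrat (0.18), Reln (0.01) and Pdgfrb (-0.01) differed little. Macrophage markers went from a mean of 8.63 to 8.87, with 1 of 10 past 1.5-fold. Pancreatic acinar and plasma cells carry large amounts of folding machinery. Of 16 measured acinar markers 10 were below the median of the deposited values on both arrays. The mean level of the 16 was 5.38 in the control and 5.51 after irradiation. Of the 6 expressed ones 2 lay above 0, and their median difference was -0.05. Ctrb1, higher by 2.65, was the only expressed one past 1.5-fold. Plasma and B cell markers, a list that includes Xbp1, had a mean level of 6.79 and 6.73. None of 7 expressed ones was past 1.5-fold, and 4 more were below the median of the deposited values on both arrays. Endothelial markers had a mean of 9.70 and 9.68.

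Immediate early genes, which respond within minutes to growth signals, were higher too. Of 22, 7 were at least 1.5-fold higher, led by Egr1 (2.27) and Gadd45g (1.73), where 1.14% of expressed genes were. Above 0 lay 19, where 48.5% of expressed genes did, while Jund (-0.02), Ier5 (-0.05) and Klf4 (-0.10) lay below. The 7 include Gadd45g and Btg2 (1.05), which also belong to families of growth arrest genes. Fasting and glucocorticoid-responsive genes, of which Ddit4 is a known further example, had a median of -0.11 over 12, with 5 above 0 and Angptl4 at -0.80. The part of either list in the values of Atf3 and Ddit4 was not tested.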

How the data were processed

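Liver RNA of 1 control and 1 irradiated sample was measured on 2 arrays from 300 ng of total RNA each. The deposited table gave a log2 value for each of 41345 probe sets, made by the authors with RMA in Affymetrix Expression Console 1.3.1, per the submitters' processing notes. RMA equalises the arrays' distributions, so a change in total RNA cannot be seen. The log base is read from the values (1.46 to 13.9), and no genome build of the array is named here, so the array values carry no coordinates.

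Genes came from probe sets with 1 symbol in GEO's platform annotation (23521; 1814 had several, 16010 none); of several probe sets, the one with the highest mean was kept. A gene was expressed when its higher value reached 6.06, the median of all values. With 1 array per group no test was made, genes were counted at 1.5-fold, and the number of arrays limits the precision. The members, lists and arms were chosen with earlier results of these data known. Named genes were the members and some of the other listed genes past 1.5-fold. Marker genes, immediate early genes and further pathway genes short of that size were chosen after their values were seen. Promoters came from RefSeq (GRCm38.p6). Scripts ran in Python 3.11.15 with pandas 2.3.3 and statsmodels 0.14.6 and were tested on simulated data. Alternatives changed the floor, scaling, probe set choice, offset, summary, members of the arm and size.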

Additional observations from a re-analysis of the deposited data

How the results depend on the processing

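No paired analysis was possible because neither sample had a replicate. No member past 1.5-fold changed direction under the alternatives run for it, and 394 of 401 member values kept their side of 1.5-fold and moved by at most 0.1. The other 7 fell short of 1.5-fold. They were Psat1 with quantile scaling, loess scaling (span 0.3), values raised to the floor or 32 added on the linear scale, and Nupr1, Asns and Ddit4 with 32 added, which compresses low values by construction. With 32 added, 2 members were therefore left past 1.5-fold. Many of the 394 could not have changed, because the floor and probe set settings alter the values of few members or of none. The 394 are therefore no measure of robustness. A threshold of 2-fold on the unaltered values left 1 member. With means in place of medians the ATF4 arm stood at 0.28, and its difference from the chaperones turned to 0.063. With the floor at the 75th percentile, 26 of 33 members lay above 0, against 45.8% of genes at that floor. The other medians moved by at most 0.1, and no scaling moved the median of all expressed genes by over 0.1.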
